A study of Mus musculus with 12 samples.

Results

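Messenger RNA levels of 10 genes that p53 is known to switch on for cell cycle arrest and for its own feedback control were followed in sorted cells of mouse liver cancer organoids, with and without 5-FU. The genes are *Cdkn1a*, *Sfn*, *Btg2*, *Plk2*, *Zmat3*, *Mdm2*, *Ccng1*, *Ppm1d*, *Phlda3* and *Sesn2*. They were taken from a list of names, with no threshold on their values. The list was drawn up with earlier results of these data known. The genes are 10 of the 47069 genes in the deposited count table. Each symbol matched 1 gene. Each gene held at least 146 reads in every library, and 10 of the 10 were among the 16157 genes that passed a filter on low counts.

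The organoids, which are tumor cells grown in 3D culture, came from liver tumors of C57BL/6 mice that carried the LGR5-DTRGFP+ allele and had received the carcinogen diethylnitrosamine. In this allele the *Lgr5* promoter drives both the diphtheria toxin receptor and GFP, so the sort into LGR5+ and LGR5- cells reports promoter activity. LGR5- cells and LGR5+ cells, each without treatment or with 5-FU, make up 4 groups, and every group has 3 libraries. The groups share the strain, the allele and the tumor origin. 5-FU (5-fluorouracil) is a cytotoxic drug that blocks the making of thymidylate and is built into RNA. The methods describe 5-FU added to organoid cultures for assays of drug response, but not which dose and duration the sequenced cells received, nor is it stated whether the 3 libraries of a group came from separate organoid lines, cultures or mice. The *P* values below therefore measure the spread between these libraries, which may be technical.

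Between 13750591 and 19323514 reads per library were counted on genes. Mitochondrial genes took 1.47% to 3.08% of them, except in LGR5- replicate 3, where the share was 6.93% without and 6.44% with 5-FU. *Lgr5* itself lay between 23.0 and 36.0 CPM in untreated LGR5- libraries and between 23.4 and 27.5 CPM in untreated LGR5+ libraries, which overlap. CPM are counts scaled to library size after a correction for library composition. Of 10 hepatocyte markers, 5 (*Ttr*, *Serpina1a*, *Tat*, *Hnf4a* and *Fgb*) never had more than 3 reads in a library, and the list summed to 11.2 to 57.2 CPM, against 3725 to 21260 CPM for 9 bile duct markers and 3129 to 17560 CPM for 9 markers of lung alveolar epithelium, 1 of which is the surfactant gene *Sftpc*. In every library most of the alveolar sum was *Sftpc*, with 2619 to 17330 CPM. Most of the hepatocyte sum was *Afp*, the fetal liver protein also made by liver cancers. It had 9.88 to 21.1 CPM in untreated and 25.6 to 54.3 CPM in treated libraries. *Afp* rose in both populations, with log2 fold changes of 1.31 in LGR5+ (adjusted *P* = 0.0177, edgeR) and 1.43 in LGR5- cells (adjusted *P* = 0.0118, edgeR). This call was lost in LGR5+ cells without untreated replicate 3 or treated replicate 1, and in LGR5- cells without replicate 3 of both treatments. *Alb*, the albumin gene of adult hepatocytes, stayed under 2 CPM in every library. The tumor type of the sequenced organoids is not given in the sources used here.

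p53 is a transcription factor that healthy cells keep scarce, because the ubiquitin ligase MDM2 marks it for destruction. DNA damage and disturbed ribosome or nucleotide supply release it from MDM2, and it then binds sites built from pairs of a loose decamer sequence near its target genes. Some targets stop the cell cycle, above all *Cdkn1a*, and others, above all *Mdm2*, turn p53 down again, so that a transient stress gives a transient arrest. In liver, p53 is known as a brake on hepatocyte and tumor cell division.

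The promoter windows below show which of the genes carry a p53 decamer close to the start of transcription. They are RefSeq sequences on GRCm38.p6, each 300 bases long, 250 before and 50 after a start site. The table held 10 such windows for 9 of the 10 genes, *Cdkn1a* having 2 windows, and none for *Zmat3*. The p53 decamer consensus, which is its own reverse complement and so covers both strands, was found in windows of 4 genes. Of all 32851 windows in the table, 8.36% held it. A run of 20 bases made of 2 adjoining decamers, with at most 1 base departing from the consensus, was found in 2 genes, *Cdkn1a* and *Ccng1*, and in 0.0883% of all windows. Capitals mark the matches. *Sfn* is shown beside the 4 genes as the gene with the largest estimated response and no match. A match is a description of letters and was not tested as a site.
*Cdkn1a*, chr17:29090729-29091028, plus strand: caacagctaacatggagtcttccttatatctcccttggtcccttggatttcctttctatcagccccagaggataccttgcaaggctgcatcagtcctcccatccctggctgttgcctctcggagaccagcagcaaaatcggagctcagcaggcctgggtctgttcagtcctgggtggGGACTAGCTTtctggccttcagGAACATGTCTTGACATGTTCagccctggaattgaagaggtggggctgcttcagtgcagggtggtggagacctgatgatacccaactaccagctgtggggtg
*Ccng1*, chr11:40755237-40755536, minus strand: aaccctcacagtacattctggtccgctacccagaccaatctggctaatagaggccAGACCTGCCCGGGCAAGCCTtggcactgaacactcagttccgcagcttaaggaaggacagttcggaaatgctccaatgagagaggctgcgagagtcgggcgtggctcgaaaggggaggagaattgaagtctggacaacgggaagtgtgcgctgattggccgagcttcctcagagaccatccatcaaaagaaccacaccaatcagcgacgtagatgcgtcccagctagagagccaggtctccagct
*Mdm2*, chr10:117710709-117711008, minus strand: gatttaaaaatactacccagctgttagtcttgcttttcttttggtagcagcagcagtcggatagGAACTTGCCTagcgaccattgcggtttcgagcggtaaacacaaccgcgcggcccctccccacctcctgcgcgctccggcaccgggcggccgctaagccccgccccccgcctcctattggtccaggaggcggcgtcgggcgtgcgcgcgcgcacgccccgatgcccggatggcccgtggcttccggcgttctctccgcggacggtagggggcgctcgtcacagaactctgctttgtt
*Ppm1d*, chr11:85311004-85311303, plus strand: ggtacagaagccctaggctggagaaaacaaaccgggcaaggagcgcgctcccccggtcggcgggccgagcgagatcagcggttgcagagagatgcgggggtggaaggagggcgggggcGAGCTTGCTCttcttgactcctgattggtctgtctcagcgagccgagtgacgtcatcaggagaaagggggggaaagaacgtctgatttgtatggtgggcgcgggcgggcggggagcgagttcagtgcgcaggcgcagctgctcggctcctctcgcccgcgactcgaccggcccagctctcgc
*Sfn*, chr4:133602119-133602418, minus strand: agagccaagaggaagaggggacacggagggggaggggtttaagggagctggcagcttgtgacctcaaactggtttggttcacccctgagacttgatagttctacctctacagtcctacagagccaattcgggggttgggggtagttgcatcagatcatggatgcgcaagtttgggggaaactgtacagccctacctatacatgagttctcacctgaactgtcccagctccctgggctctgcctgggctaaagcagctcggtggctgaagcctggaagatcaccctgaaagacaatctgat

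In the *Cdkn1a* window the 20 bases lie from -51 to -32 relative to the start site, and a further decamer lies from -73 to -64. The 20 bases of *Ccng1* lie from -195 to -176. The decamer of *Mdm2* lies from -186 to -177 and that of *Ppm1d* from -132 to -123. The windows of *Btg2*, *Plk2*, *Phlda3* and *Sesn2* and the other *Cdkn1a* window held no match, which says nothing about sites farther away.

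After 5-FU, 8 of the 10 genes rose in LGR5+ cells and 9 of 10 rose in LGR5- cells, and none fell. Among all genes tested, 9.66% were called higher and 6.37% lower in LGR5+ cells (16% in all), and 8.3% higher and 7.11% lower in LGR5- cells (15.4% in all). The median log2 fold change of the 10 genes was 1.81 in LGR5+ cells and 1.66 in LGR5- cells, beside -0.02 and -0.05 for all genes tested. Since the 10 genes were chosen with earlier results of these data known, these shares and medians are descriptions and not a test. *Ppm1d* was called in neither population and *Zmat3* only in LGR5- cells, a difference between populations that is tested further on. A call is an adjusted *P* under 0.05 from edgeR's quasi-likelihood test, fitted on 16157 genes across all 12 libraries with Benjamini-Hochberg adjustment. Because these are bulk libraries, fewer cells of a type and less RNA per cell cannot be told apart. With the thresholds of the study's methods, an unadjusted *P* under 0.05 and a log2 fold change over 1.5 in size, 7 of the 10 genes were higher in each population, beside 4.42% of all genes in LGR5+ and 4.25% in LGR5- cells. The plot of CPM by library shows that the treated and untreated libraries did not overlap for 8 genes in each population, which was also the case, with the treated libraries higher, for 22.3% of all genes in LGR5+ cells and 13.7% in LGR5- cells.

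**Figure D1:**
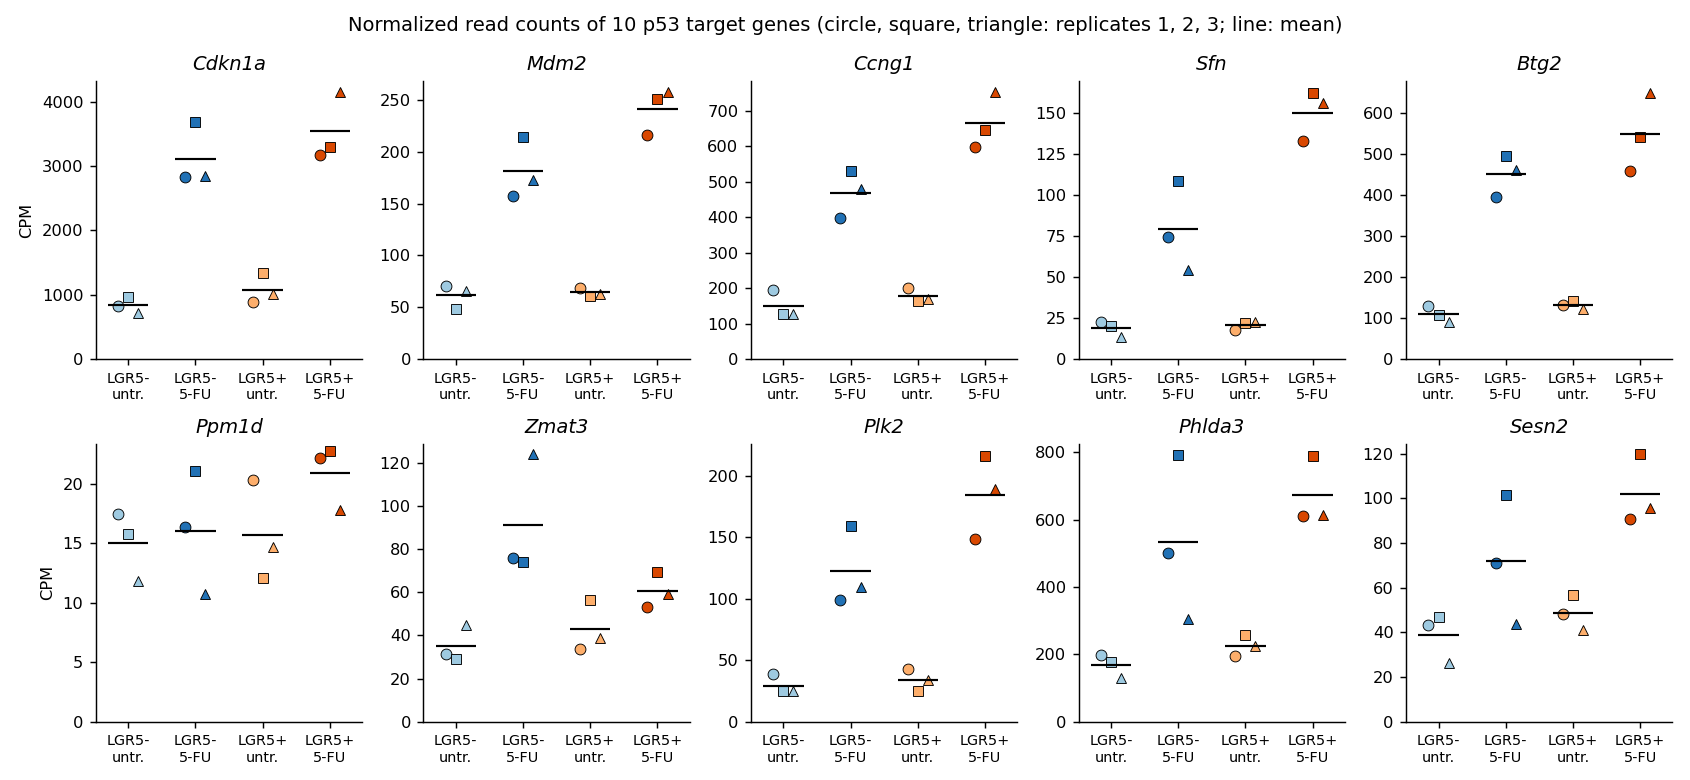
Normalized read counts (CPM, linear axis from 0) of each of the 10 genes in the 12 libraries, by population and treatment, with 1 symbol per replicate and a line at the group mean. In most panels the 5-FU-treated libraries of a population lie above its untreated libraries, whereas *Ppm1d* overlaps in both populations, *Zmat3* in LGR5+ cells and *Sesn2* in LGR5- cells.

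*Cdkn1a* (ENSMUSG00000023067, chromosome 17 from 29090976 to 29100727, plus strand, GRCm38) encodes p21, an inhibitor of cyclin-dependent kinases. It read 830.3, 969 and 720.4 CPM in the untreated LGR5- libraries and 892, 1331 and 1009 CPM in the untreated LGR5+ libraries. With 5-FU it read 2826, 3687 and 2841 CPM in LGR5- and 3175, 3294 and 4153 CPM in LGR5+ cells. Every treated library thus lay above every untreated library, in each population and across both. The mean rose from 1077 ± 228 to 3541 ± 534 CPM in LGR5+ cells (SD, n = 3 each), 3.29-fold, with a log2 fold change of 1.72 ± 0.24 (SE, adjusted *P* = 0.000271, edgeR). In LGR5- cells it rose from 840.1 ± 125 to 3118 ± 493 CPM, 3.71-fold, with a log2 fold change of 1.89 ± 0.25 (SE, adjusted *P* = 0.000182, edgeR). The annotation places a predicted gene on the opposite strand, AC167363.2, over 273 of its exonic bases. Whether the counting used strand is not stated, so reads of the pair cannot be told apart there.

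*Sfn* (ENSMUSG00000047281, chromosome 4 from 133600556 to 133602168, minus strand, 1 exon) encodes stratifin, which holds cell cycle kinases in the cytoplasm at the G2 checkpoint and is abundant in stratified epithelium. Untreated LGR5- libraries held 22.5, 20.03 and 13.5 CPM and untreated LGR5+ libraries 17.8, 21.9 and 22.5 CPM. After 5-FU the LGR5- libraries held 74.2, 108 and 54.4 CPM and the LGR5+ libraries 133, 162 and 156 CPM. Treated and untreated libraries were far apart in each population, and the LGR5+ libraries were the highest. Of the 10 genes, *Sfn* had the largest estimated response, although in LGR5- cells *Plk2*, *Btg2* and *Cdkn1a* lay within its standard error. It was 7.24-fold in LGR5+ cells with a log2 fold change of 2.86 ± 0.26 (SE, adjusted *P* = 7.39e-06, edgeR) and 4.23-fold in LGR5- cells with 2.08 ± 0.25 (SE, adjusted *P* = 0.000117, edgeR). By *P*, it ranked 43 of 16157 genes in LGR5+ cells and 108 in LGR5- cells.

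Markers of squamous epithelium moved with *Sfn*. Of 14 such genes, 12 were tested and 10 rose in each population, 9 or 10 when single libraries were left out, and 5 of the 7 that had a minimum of 10 reads per library. Their summed level went from 58.0 to 156 CPM in untreated to between 1065 and 1824 CPM in treated LGR5+ libraries, and from 65.6 to 104 CPM to between 318 and 691 CPM in LGR5- libraries. *Krt16*, a keratin of stressed stratified epithelium, had a log2 fold change of 7.54 in LGR5+ cells (standard error 0.69, adjusted *P* = 1.09e-05, edgeR). Its untreated LGR5+ libraries held only 2 to 6 reads, so the size of this change is uncertain. *Krt1* and *Dsc3* never had more than 3 reads. The part of these cells or this program in the level of *Sfn* was not tested.

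*Btg2* (ENSMUSG00000020423, chromosome 1 from 134075170 to 134079120, minus strand) encodes an antiproliferative protein that recruits the deadenylase complex to messenger RNA. It had 129, 108 and 90.1 CPM in untreated LGR5- and 131, 141 and 122 CPM in untreated LGR5+ libraries. With 5-FU these became 395, 495 and 463 CPM in LGR5- and 459.9, 542 and 651 CPM in LGR5+ libraries. The responses of the populations were almost the same in size. They were 4.20-fold in LGR5+ cells, a log2 fold change of 2.07 ± 0.21 (SE, adjusted *P* = 1.51e-05, edgeR), and 4.13-fold in LGR5- cells, 2.05 ± 0.21 (SE, adjusted *P* = 2.82e-05, edgeR).

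*Plk2* (ENSMUSG00000021701, chromosome 13 from 110395046 to 110400844, plus strand) encodes a polo-like kinase that works in centriole duplication and checkpoint signaling. Its untreated values were 38.4, 24.9 and 24.99 CPM in LGR5- and 42.6, 25.2 and 33.7 CPM in LGR5+ libraries. Treated values were 99.2, 159 and 109 CPM in LGR5- and 148, 216 and 189 CPM in LGR5+ libraries. After *Sfn* it had the largest response in LGR5+ cells, 5.45-fold with a log2 fold change of 2.45 ± 0.27 (SE, adjusted *P* = 2.89e-05, edgeR). In LGR5- cells the response was 4.17-fold with a log2 fold change of 2.06 ± 0.26 (SE, adjusted *P* = 0.000162, edgeR).

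*Zmat3* (ENSMUSG00000027663, chromosome 3 from 32334792 to 32366014, minus strand) encodes an RNA-binding zinc finger protein that acts on splicing and stability of messenger RNAs. It stood apart from the other genes, being higher after 5-FU in LGR5- than in LGR5+ libraries. Untreated LGR5- libraries had 31.4, 29.0 and 44.6 CPM and treated ones 75.6, 74.2 and 124 CPM. In LGR5+ cells the untreated libraries, with 33.6, 56.3 and 38.9 CPM, overlapped the treated ones, with 53.01, 69.4 and 59.1 CPM. It rose 2.61-fold in LGR5- cells, a log2 fold change of 1.38 ± 0.26 (SE, adjusted *P* = 0.00253, edgeR). In LGR5+ cells the log2 fold change was 0.50 (95% interval -0.04 to 1.03, adjusted *P* = 0.206, edgeR), and the rise was not called. LGR5- replicate 3, the library with the high mitochondrial share, was the highest of its group with and without 5-FU, and with it left out in both treatments the LGR5- response was 1.31 (adjusted *P* = 0.00144, edgeR).

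Among the genes of feedback, *Mdm2* (ENSMUSG00000020184, chromosome 10 from 117688875 to 117710758, minus strand) encodes the ligase that removes p53. Untreated libraries held 70.6, 48.4 and 65.6 CPM in LGR5- and 68.8, 61.2 and 62.7 CPM in LGR5+ cells. Treated libraries held 158, 215 and 173 CPM in LGR5- and 216, 251 and 258 CPM in LGR5+ cells. No treated library came near an untreated one, and after 5-FU the LGR5+ libraries were above the LGR5- libraries, the closest pair by less than 2 CPM. The response was 3.76-fold in LGR5+ cells, a log2 fold change of 1.91 ± 0.19 (SE, adjusted *P* = 1.7e-05, edgeR), and 2.95-fold in LGR5- cells, 1.56 ± 0.19 (SE, adjusted *P* = 0.000123, edgeR).

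*Ccng1* (ENSMUSG00000020326, chromosome 11 from 40748552 to 40755311, minus strand) encodes cyclin G1, which brings phosphatase 2A to MDM2 and so lowers p53. LGR5- libraries had 193, 126 and 126 CPM untreated and 396, 529 and 480.2 CPM after 5-FU. LGR5+ libraries had 200.5, 165 and 170.2 CPM untreated and 598, 644 and 752 CPM after 5-FU. The treated LGR5+ libraries were higher than the treated LGR5- libraries without overlap. *Ccng1* rose 3.72-fold in LGR5+ cells, a log2 fold change of 1.90 ± 0.22 (SE, adjusted *P* = 4.83e-05, edgeR), and 3.16-fold in LGR5- cells, 1.66 ± 0.22 (SE, adjusted *P* = 0.000201, edgeR).

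*Ppm1d* (ENSMUSG00000020525, chromosome 11 from 85311244 to 85347066, plus strand) encodes WIP1, a phosphatase that resets damage signaling and p53. It read 17.5, 15.8 and 11.8 CPM in untreated and 16.4, 21.1 and 10.7 CPM in treated LGR5- libraries. In LGR5+ libraries it read 20.3, 12.1 and 14.7 CPM untreated and 22.1, 22.8 and 17.8 CPM treated. The groups overlapped in both populations. Its log2 fold change was 0.41 in LGR5+ cells (95% interval -0.14 to 0.96, adjusted *P* = 0.315, edgeR) and 0.10 in LGR5- cells (95% interval -0.46 to 0.65, adjusted *P* = 0.845, edgeR). The gene had 146 to 414 reads per library. Leaving out single libraries moved the LGR5+ estimate between 0.26 (without untreated replicate 2) and 0.65 (without untreated replicate 1) and the LGR5- estimate between -0.15 and 0.35, with no call in any of these fits.

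A further pair of targets acts on growth signals. *Phlda3* (ENSMUSG00000041801, chromosome 1 from 135766119 to 135769136, plus strand) encodes a small membrane-binding protein that keeps the survival kinase AKT off the membrane. Untreated LGR5- libraries had 198, 179 and 129 CPM and treated ones 501.5, 793 and 304 CPM, the widest relative spread of the 10 genes in any group, with a coefficient of variation of 46.1%. Untreated LGR5+ libraries had 195, 258 and 226 CPM and treated ones 612, 790.1 and 615 CPM. Treated and untreated libraries did not overlap in either population. The log2 fold change was 1.57 in LGR5+ cells (2.97-fold, SE 0.30, adjusted *P* = 0.00233, edgeR) and 1.66 in LGR5- cells (3.16-fold, SE 0.30, adjusted *P* = 0.00208, edgeR). LGR5- replicate 3 was the lowest of its group in both treatments, and without it the LGR5- response was 1.78 (adjusted *P* = 0.000274, edgeR).

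*Sesn2* (ENSMUSG00000028893, chromosome 4 from 132492032 to 132510501, minus strand) encodes sestrin 2, a leucine sensor that restrains the growth kinase complex mTORC1. In LGR5- cells the untreated libraries, with 43.3, 46.8 and 26.4 CPM, overlapped the treated ones, with 70.9, 101 and 43.6 CPM. In LGR5+ cells they did not overlap, with 48.2, 56.9 and 41.2 CPM untreated and 90.8, 119.7 and 95.5 CPM treated. *Sesn2* had the smallest response among the genes called in both populations. It was 2.09-fold in LGR5+ cells, a log2 fold change of 1.07 ± 0.28 (SE, adjusted *P* = 0.018, edgeR), and 1.85-fold in LGR5- cells, 0.89 ± 0.28 (SE, adjusted *P* = 0.0448, edgeR). By edgeR, the LGR5+ call was lost without untreated replicate 1 (adjusted *P* = 0.0571), untreated replicate 3 (0.0894) or treated replicate 2 (0.0889). The LGR5- call was lost without untreated replicate 1, 2 or 3 (0.0821, 0.0579 and 0.0987) or treated replicate 1 or 2 (0.0738 and 0.218), and in a fit of the LGR5- libraries alone (0.132), whereas without replicate 3 of both treatments it was 0.00815 (all edgeR).

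**Figure D2:**
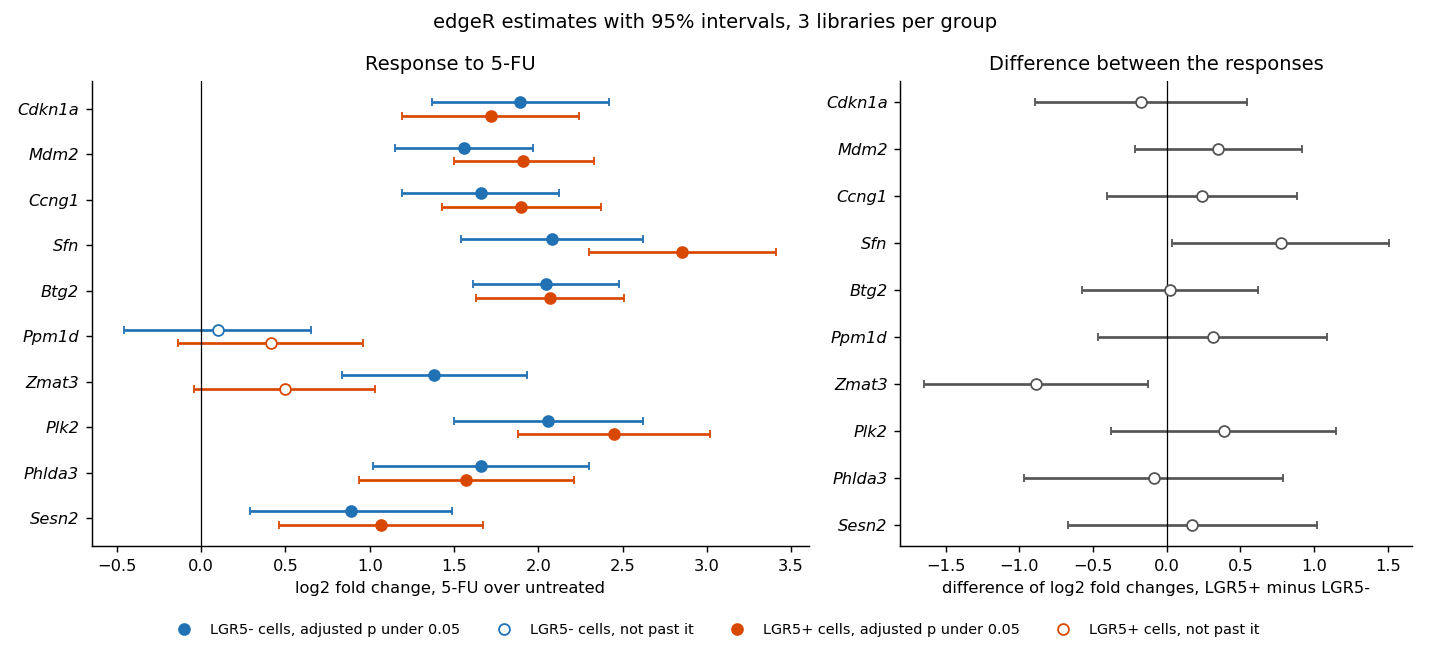
Left, edgeR log2 fold changes of 5-FU over untreated cells for the 10 genes in LGR5- (blue) and LGR5+ cells (orange), with filled points at an adjusted *P* under 0.05; right, the LGR5+ minus LGR5- difference of those log2 fold changes; bars are 95% intervals. The intervals of 8 genes lie above 0 in both populations on the left, and on the right only those of *Sfn*, above 0, and *Zmat3*, below 0, leave out 0.

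Levels were compared between genes per kilobase of exonic sequence. In treated LGR5+ cells *Cdkn1a* stood highest, with 997 ± 150 CPM per kb (SD, n = 3), followed by *Phlda3* with 431 ± 65.5. *Btg2* and *Ccng1*, with 201 ± 35.0 and 189 ± 22.5 CPM per kb, overlapped each other, and *Sfn* followed with 93.0 ± 9.45. *Mdm2* (47.6 ± 4.39), *Plk2* (41.1 ± 7.61) and *Sesn2* (29.4 ± 4.46 CPM per kb) overlapped as neighbors in the order. *Ppm1d* (6.59 ± 0.85) and *Zmat3* (5.29 ± 0.73 CPM per kb) were the lowest and overlapped. *Cdkn1a* and *Phlda3* were also the highest in the other 3 groups, without overlap with each other or the next gene there. In untreated LGR5+ cells *Cdkn1a* had 303 ± 64.1 CPM per kb, and *Sfn*, with 12.8 ± 1.59, overlapped *Sesn2* and *Mdm2*. In treated LGR5- cells *Zmat3*, with 7.98 ± 2.48 CPM per kb, stood above *Ppm1d*, with 5.06 ± 1.64, but overlapped it.

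Between untreated LGR5+ and LGR5- cells, 0 of the 10 genes were called, as were 0 of all genes tested (0%). At an unadjusted *P* under 0.05, 0 of the 10 and 214 of all genes (1.32%) passed, and DESeq2 called 0 genes. The libraries of the populations overlapped for 10 of 10 genes, while 2.7% of all genes were higher and 2.57% lower in LGR5+ cells without overlap. Estimated log2 fold changes of LGR5+ over LGR5- cells ran from 0.06 for *Mdm2* to 0.42 for *Phlda3* (95% interval -0.20 to 1.05), with a median of 0.27. *Cdkn1a* had 0.36 (95% interval -0.15 to 0.87). These intervals do not show that the populations had the same levels.

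After 5-FU, 0 of the 10 genes and 0 of all genes tested (0%) were called between LGR5+ and LGR5- cells by edgeR, but the estimates were higher in LGR5+ cells for every gene except *Zmat3*. At an unadjusted *P* under 0.05, 5 of the 10 genes passed, beside 2095 of all genes (13%), and DESeq2 called 92 genes. *Sfn* was 1.90-fold higher in LGR5+ cells, 150.02 ± 15.2 against 78.9 ± 27.2 CPM (SD, n = 3 each), or 0.93 on the log2 scale (95% interval 0.41 to 1.45, adjusted *P* = 0.336, edgeR). *Plk2* had 0.59 (0.05 to 1.13), *Ccng1* 0.50 (0.05 to 0.96) and *Mdm2* 0.41 (0.01 to 0.81). *Zmat3* had -0.59 (-1.13 to -0.06), with 60.5 ± 8.30 CPM in LGR5+ and 91.3 ± 28.3 CPM in LGR5- cells. The libraries did not overlap for *Mdm2*, *Ccng1* and *Sfn*, higher in LGR5+ cells, or for *Zmat3*, lower in them, and of all genes tested 14.2% were higher and 10.2% lower without overlap.

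For this comparison the replicate numbers were taken to pair the libraries, since same-numbered ones deviated together (r = 0.646, 0.262 and 0.359). The labels and methods state no pairing. With the number as a block and only the 6 libraries compared, a fit added after the data were seen, *Sfn* was called higher in LGR5+ cells (log2 fold change 0.90, adjusted *P* = 0.0344, edgeR), as were 451 of all genes in either direction. *Zmat3* had -0.63 in that fit (adjusted *P* = 0.0755, edgeR). With the block in the fit of all 12 libraries, *Sfn* had an adjusted *P* of 0.174 and 0 genes were called, and by DESeq2 it had 0.0678. The value rests in part on LGR5- replicate 3: without that replicate of both treatments the difference was 0.72 for *Sfn* (adjusted *P* = 0.273, edgeR) and -0.31 for *Zmat3* (adjusted *P* = 0.593, edgeR).

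Whether the populations responded differently to 5-FU was tested by the difference of their log2 fold changes. By edgeR, 0 of the 10 genes and 0 of all genes tested (0%) were called, against 2 of the 10 and 254 of all genes (1.57%) at an unadjusted *P* under 0.05, and DESeq2 called 0. The 2 genes were *Zmat3*, whose response was smaller in LGR5+ cells by -0.89 on the log2 scale (95% interval -1.65 to -0.13, unadjusted *P* = 0.0253 and adjusted *P* = 1, edgeR), and *Sfn*, whose response was larger by 0.77 (95% interval 0.04 to 1.51, unadjusted *P* = 0.0413 and adjusted *P* = 1, edgeR). For the other 8 genes the estimates ran from -0.18 for *Cdkn1a* (95% interval -0.89 to 0.54) to 0.39 for *Plk2* (95% interval -0.38 to 1.15). For *Btg2* the estimate was 0.02 (95% interval -0.57 to 0.62), the smallest in size. The intervals of *Ppm1d*, *Plk2* and *Sesn2* reached beyond 1 on the log2 scale.

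Within groups, the genes did not spread alike. In treated LGR5- replicate 2, 9 of the 10 genes lay above their group mean, and their median deviation on the log2 scale was 0.33, beside -0.00 for all genes tested. In untreated LGR5- cells, 8 of 10 lay above it in replicate 1 and 8 of 10 below it in replicate 3, with median deviations of 0.24 and -0.24. In treated LGR5+ replicate 1, 9 of 10 lay below it, with a median deviation of -0.16. The heat map of deviations shows that *Sfn*, *Phlda3*, *Sesn2* and *Ppm1d* were lowest in LGR5- replicate 3 of both treatments, with deviations of -0.32 to -0.70, while *Zmat3* was highest there, by 0.37 and 0.48. Over the 12 deviations from group means, *Phlda3* correlated with *Sfn* at a Pearson r of 0.945 and with *Sesn2* at 0.931, and *Zmat3* with *Ppm1d* at -0.834. These values describe 12 libraries that also differ in mitochondrial share, depth and *Sftpc*. In untreated LGR5- replicates 1 and 2 and LGR5+ replicate 1, *Sftpc* had 15670 to 17330 CPM, *Ppm1d* 15.8 to 20.3 CPM and *Zmat3* 29.0 to 33.6 CPM. In the other 3 untreated libraries *Sftpc* had 3440 to 5764 CPM, *Ppm1d* 11.8 to 14.7 CPM and *Zmat3* 38.9 to 56.3 CPM. The libraries were parted by *Sftpc*, and these genes picked, after the values were seen. How many of all genes part in the same way was not counted. The part of these differences in the correlations was not tested.

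**Figure D3:**
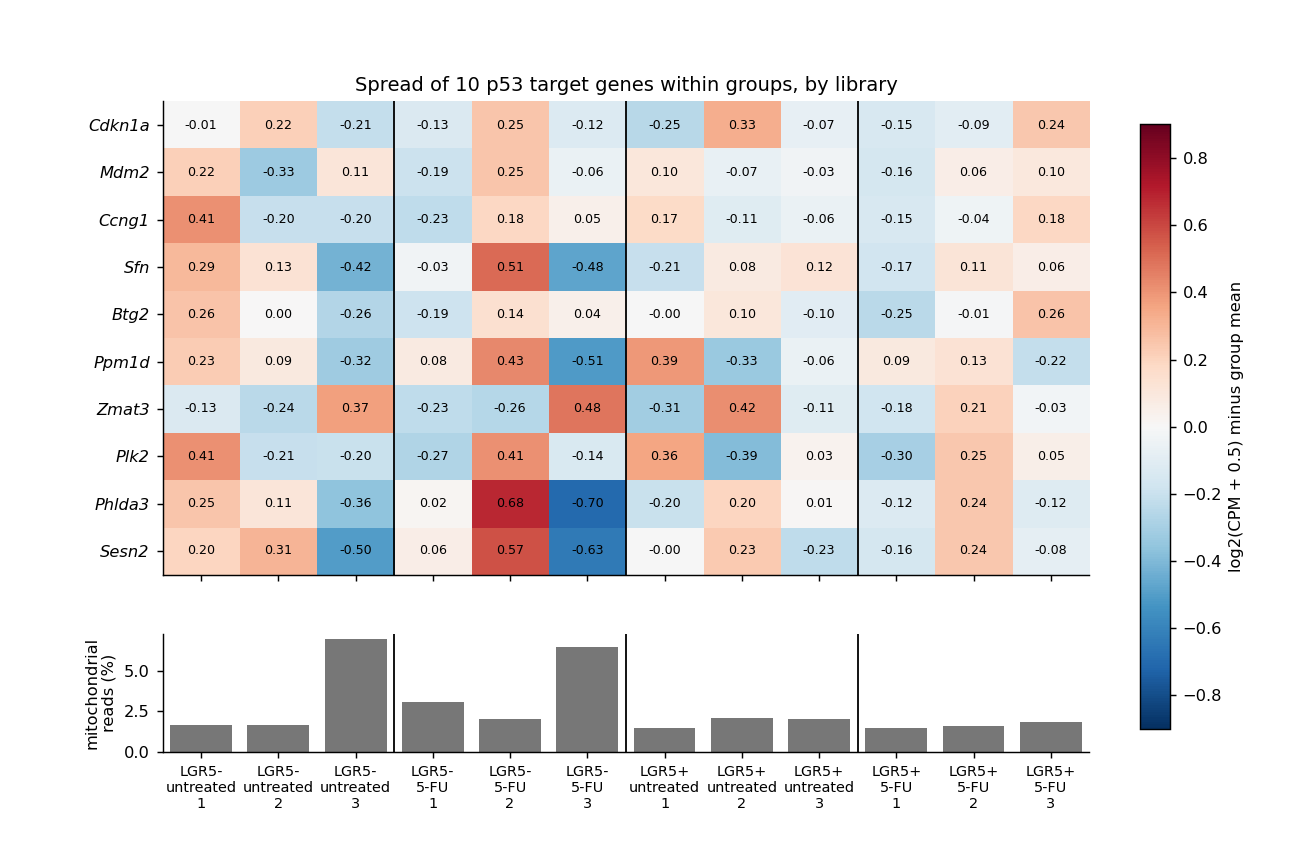
Heat map of log2(CPM + 0.5) minus the group mean for the 10 genes (rows) in the 12 libraries (columns, grouped by population and treatment), over a bar chart of each library's mitochondrial read share in percent. The columns of LGR5- replicate 3 hold the lowest values of *Phlda3*, *Sesn2*, *Sfn* and *Ppm1d* in their groups, the highest of *Zmat3*, and the tallest bars, 6.93% and 6.44%.

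The genes whose log2 CPM followed that of *Cdkn1a* most closely over the 12 libraries, the 10 genes themselves left out, were *Serpinb6b* (Pearson r = 0.993), *Dcxr* (0.992), *Pdrg1* (0.990), *Gdf15* (0.988) and *Cpz* (0.987). The libraries fall into treated and untreated ones, and each r spans both. *Gdf15*, a secreted stress cytokine, went from 138 to 431 CPM in LGR5+ cells and from 100.1 to 357 CPM in LGR5- cells on average. *Dcxr*, a carbonyl reductase, went from 257 to 697 CPM and from 192 to 635 CPM. Both stand in the list of other p53 targets, described next. Among the 10 genes, r over the 12 libraries lay between -0.179, for *Zmat3* with *Ppm1d*, and 0.989, for *Ccng1* with *Plk2*.

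The transcript of p53 itself was not called in either population. *Trp53* had 149 to 328 CPM in untreated and 153 to 279.9 CPM in treated LGR5- libraries, and 226 to 286 CPM in untreated and 292 to 311 CPM in treated LGR5+ libraries, with log2 fold changes of -0.13 in LGR5- (adjusted *P* = 0.792) and 0.26 in LGR5+ cells (adjusted *P* = 0.578, edgeR). It was lowest in LGR5- replicate 3 of both treatments. *Mdm4*, the relative of *Mdm2* that holds p53 inactive, had -0.10 in LGR5+ (adjusted *P* = 0.9) and 0.09 in LGR5- cells (adjusted *P* = 0.915, edgeR). Of 16 tested genes that act on p53, 2 rose and 1 fell in LGR5+ cells, and 2 rose and 2 fell in LGR5- cells, 18.8% and 25% of the list beside 16% and 15.4% of all genes. Other settings moved the number that fell between 1 and 3 in LGR5+ cells, with 3 without LGR5- replicate 3 of both treatments and 2 without treated LGR5+ replicate 1, and between 1 and 2 in LGR5- cells, with 1 without treated replicate 2 or 3 or untreated replicate 1 or 3. *Trp53inp1*, which aids p53 phosphorylation, had a log2 fold change of 2.21 in LGR5+ and 2.20 in LGR5- cells. *Rchy1*, another p53 ubiquitin ligase, had 0.86 and 0.76. *Chek1*, a checkpoint kinase, fell by 1.47 and by 1.70 on the log2 scale.

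Of 27 further p53 targets of arrest, repair, metabolism and signaling, 13 rose and 1 fell in LGR5+ cells (median log2 fold change 0.75), and 12 rose and 2 fell in LGR5- cells (median 0.59). *Gls2*, a glutaminase, was called lower in both, and *E2f7*, a repressor of cell cycle genes, in LGR5- cells. These calls were lost in some fits: other settings and left-out libraries moved the number that fell between 0 and 3 in LGR5+ and between 0 and 2 in LGR5- cells. The number that rose moved between 11 and 15 and between 11 and 16. *Zfp365*, a replication stress gene, had log2 fold changes of 2.35 and 2.63 in LGR5+ and LGR5- cells. *Ak1*, an adenylate kinase, had 2.40 and 2.09, and *Cd80*, a costimulatory ligand with 1 to 9 reads in untreated libraries, had 5.32 and 4.26. Of 12 p53 targets of cell death, 10 rose in LGR5+ and 9 in LGR5- cells, with medians of 1.24 and 1.02. *Perp*, a membrane protein of desmosomes and apoptosis, had 3.39 and 2.80, and *Fas*, a death receptor, had 3.20 and 3.10, both above the estimates of all 10 genes in the same population. *Trp53inp1* stands in this list and in that of genes that act on p53. *Sesn1*, *Btg1* and *Plk3* stand in the list of other targets and in that of paralogs, described next.

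Paralogs of the 10 genes, which carry related proteins but are mostly not known as p53 targets, were compared next. Of 25 tested, 2 rose and 2 fell in LGR5+ cells, and 1 rose and 2 fell in LGR5- cells. The called share, 16% and 12% of the 25, was near that of all genes tested (16% and 15.4%). Without LGR5- replicate 3 of both treatments, 6 rose in LGR5+ and 3 in LGR5- cells, and without treated LGR5+ replicate 3, 1 rose and 0 fell in LGR5+ cells. The paralogs with the highest mean CPM were *Cdkn1c* for *Cdkn1a* (log2 fold change -0.18 in LGR5+ and -0.04 in LGR5- cells), *Ywhaz* for *Sfn* (0.58 and -0.24), *Btg1* for *Btg2* (0.43 and 0.36), *Ccng2* for *Ccng1* (-0.16 and -0.34), *Phlda1* for *Phlda3* (-0.12 and 0.37), *Ppm1b* for *Ppm1d* (-0.04 and -0.60) and *Zmat1* for *Zmat3* (0.70 and 0.55), none of them called. Of the paralogs called, 2 were also the most counted of their family. *Sesn3*, the sestrin paralog with the highest CPM, rose, with 1.64 in LGR5+ (adjusted *P* = 6.75e-05, edgeR) and 1.26 in LGR5- cells (adjusted *P* = 0.000677, edgeR), while *Sesn1*, also a known p53 target, had 0.09 and -0.07. *Plk1*, the mitotic relative of *Plk2* and its paralog with the highest CPM, fell by 1.61 in LGR5+ (adjusted *P* = 0.00767, edgeR) and by 1.90 in LGR5- cells (adjusted *P* = 0.00347, edgeR). *Plk4*, the centriole kinase, fell by 1.62 and 2.02. *Tob1*, a less counted paralog of *Btg2*, rose by 0.56 in LGR5+ cells (adjusted *P* = 0.0241, edgeR) and had 0.38 in LGR5- cells (adjusted *P* = 0.118, edgeR).

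**Figure D4:**
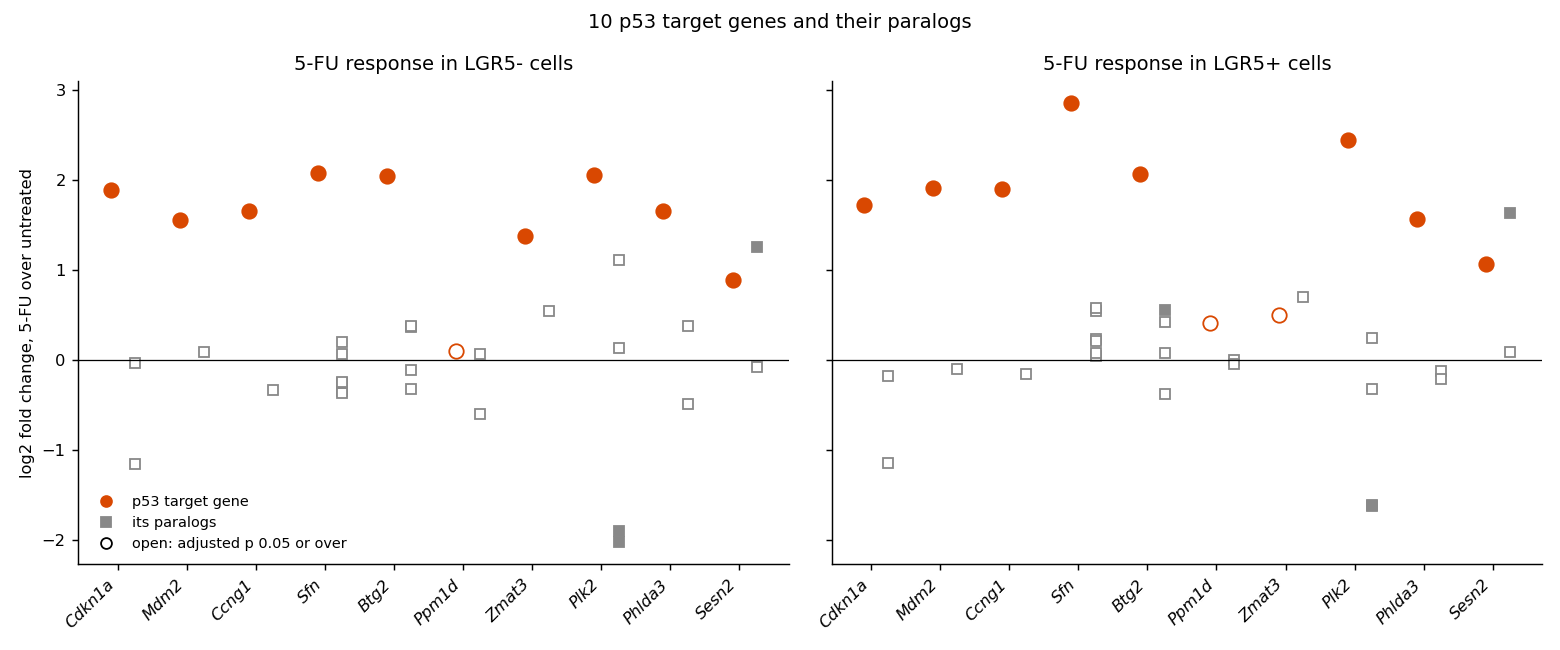
edgeR log2 fold changes of 5-FU over untreated cells in LGR5- (left) and LGR5+ cells (right) for each of the 10 genes (orange circles) and its tested paralogs (gray squares), filled at an adjusted *P* under 0.05. The filled squares are *Sesn3* above 0 and *Plk1* and *Plk4* below 0 in both populations, and *Tob1* above 0 in LGR5+ cells, while open squares reach -1.15 for *Cdkn1b* and 1.11 for *Plk5* in LGR5- cells.

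Of 25 tested genes of S phase entry and of the S, G2 and M phases, which p21 is known to hold down, 14 fell in LGR5+ cells and 21 in LGR5- cells and none rose. The median log2 fold changes were -1.33 and -1.68. The replication helicase genes *Mcm2* to *Mcm7* were not called in LGR5+ cells, with log2 fold changes of -1.27 to -0.77, and the 6 of them were called lower in LGR5- cells. *Cdc25c*, the phosphatase that starts mitosis, fell by 1.85 in LGR5+ (adjusted *P* = 0.000185, edgeR) and by 1.68 in LGR5- cells (adjusted *P* = 0.000537, edgeR). *Ccnb2*, a mitotic cyclin, fell to a 0.379-fold level in LGR5+ (adjusted *P* = 0.00532, edgeR) and to a 0.354-fold level in LGR5- cells (adjusted *P* = 0.00417, edgeR). *Aurka*, a mitotic kinase, fell by 1.33 and by 1.73. The median difference between the responses, LGR5+ minus LGR5-, was 0.37 in this list, with 0 of 25 called. Leaving out single libraries or changing the settings moved the number that fell between 7 and 23 in LGR5+ cells and between 13 and 24 in LGR5- cells, ranges that overlap. In LGR5+ cells it was 7 without treated replicate 3, 8 without treated replicate 2 and 22 without treated replicate 1, and in LGR5- cells it was 13 without treated replicate 2.

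**Figure D5:**
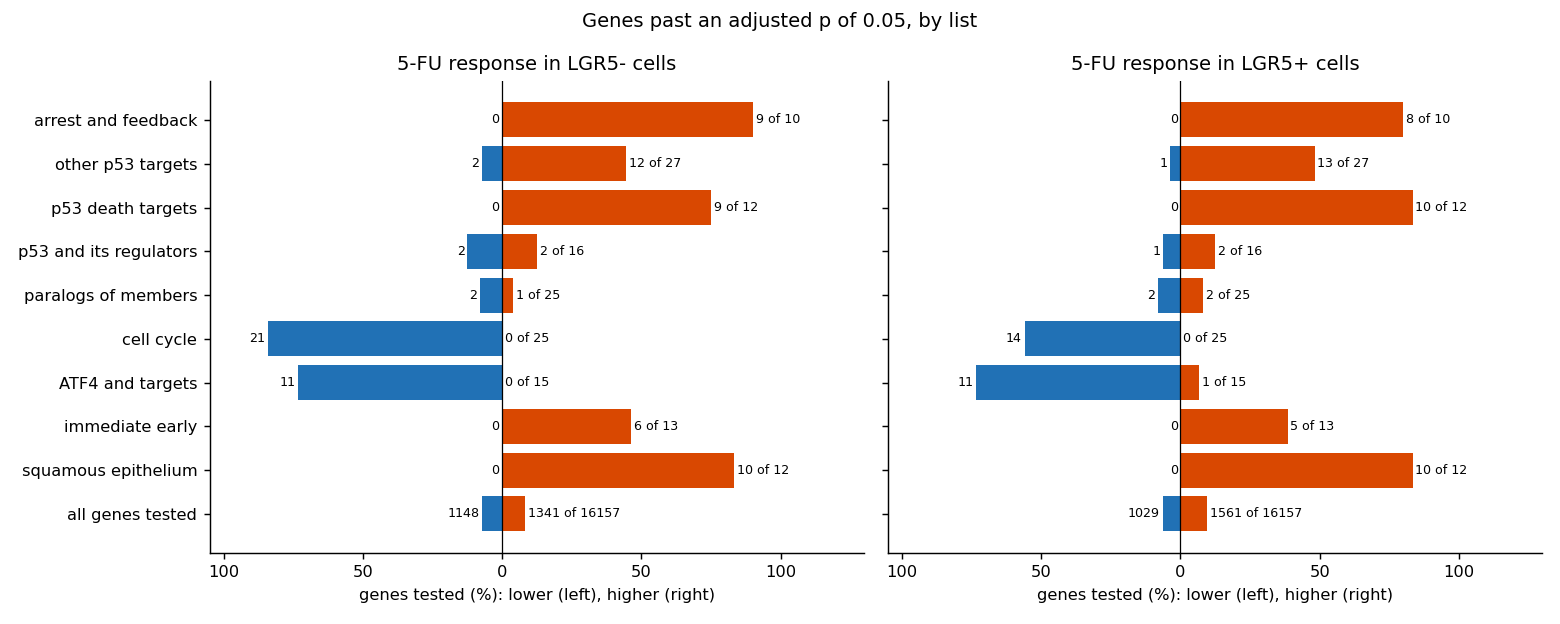
Percent of the tested genes of each list called higher (right) or lower (left) after 5-FU at an adjusted *P* under 0.05 in LGR5- and LGR5+ cells, with the counts beside the bars and all genes tested in the bottom row. The 10 genes of arrest and feedback, the p53 targets of cell death and the squamous genes reach furthest to the right, at 75% to 90%, and the cell cycle and ATF4 lists furthest to the left. The lists were chosen with earlier results of these data known.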

How the data were processed

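RNA from sorted organoid cells was amplified with a SMARTer (SMART-Seq v4) kit and sequenced in 150-base read pairs. The deposited values are whole read counts per Ensembl mouse gene, 1 column per library, which the authors made without normalization. Per the labels, the submitters' processing notes name HISAT2, HISAT, TopHat2, HTSeq and the build mm8, with no roles. Versions, annotation and strand setting are not given in the sources used here. Of 47069 genes, 46488 matched a symbol. Positions and exonic lengths came from GENCODE on GRCm38 and describe the annotation, not the authors' counting.

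Groups came from the sample titles. Counts were filtered with filterByExpr, scaled by TMM and fitted with edgeR 4.0.16 (robust quasi-likelihood, R 4.3.3) as 4 group means over 12 libraries, with Benjamini-Hochberg adjustment over 16157 genes. The biological coefficient of variation was 26.6%. Intervals are 95%. Scripts were tested on simulated data. Correlations and deviations used log2(CPM + 0.5). A library total of 13750591 to 19323514 reads puts the floor of 3 reads at 0.155 to 0.218 CPM, and since reads carry no molecular identifiers, such limits cover counting error only. No 2 libraries agreed within sampling noise (chi-square per degree of freedom at least 4.42).

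Alternatives were DESeq2 1.42.0, library-size scaling, other count filters, the study's thresholds, fits of only the libraries compared, a replicate block and leaving out libraries. Same-numbered libraries deviated together between LGR5+ and LGR5- cells after 5-FU (r = 0.646, 0.262 and 0.359), so the numbers in the titles were taken as pairs there. The sources used here state no pairing. In the other comparisons at least 1 number fell under 0.1. The members and lists were chosen with earlier results of these data known. Named genes were the 10 members, *Trp53*, *Mdm4*, the 5 genes most like *Cdkn1a* and the paralog of each member with the highest CPM. From each list other than those of cell type markers, the 3 genes with the smallest *P* for the LGR5+ response were also named. Others, among them the named cell type markers, were chosen after their values were seen.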

Additional observations from a re-analysis of the deposited data

How the results depend on the processing

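In each population the log2 fold changes of the 8 genes called in both stayed above 0 under every alternative. DESeq2, library-size scaling and other filters left the number of the 10 genes called after 5-FU at 8 in LGR5+ and 9 in LGR5- cells, and leaving out single libraries gave 7 to 8 and 8 to 9, *Sesn2* being the call lost. The count over all genes was less stable. From 2590 in LGR5+ cells it became 1168 with the study's thresholds, 4045 with only the libraries compared and 4448 without LGR5- replicate 3 of both treatments, and 1373 to 2488 without single libraries. From 2489 in LGR5- cells it became 1131 with the study's thresholds, 1282 with only the libraries compared and 1562 to 3418 without single libraries. The cause was not tested, beyond the different rule in the first case of each. With the study's thresholds, which do not adjust *P*, 0 calls became 74 between untreated populations, 274 between treated ones and 69 for the difference of responses.

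Between treated populations, 0 calls became 11 without a count filter, 92 by DESeq2 and 451 with the replicate block in the 6 libraries, where 1 of the 10 genes, *Sfn*, was called. The block changed no other call among the 10 genes and gave 2967 and 2890 calls over all genes for the responses of LGR5+ and LGR5- cells. Estimates near 0 changed sign. The difference of responses of *Btg2* was -0.0274 with no filter, -0.0126 with a minimum of 10 reads per library and -0.0977 by library size. Without LGR5- replicate 3 of both treatments, the untreated difference between populations was -0.0832 for *Ppm1d* and -0.036 for *Sfn*. Without single libraries the difference of responses ran from -0.113 to 0.146 for *Btg2*, -0.302 to 0.00929 for *Cdkn1a*, -0.405 to 0.321 for *Phlda3* and -0.12 to 0.511 for *Sesn2*. The untreated difference ran from -0.0789 to 0.18 for *Mdm2*, -0.158 to 0.222 for *Ppm1d* and -0.0358 to 0.311 for *Sfn*, and the LGR5- response of *Ppm1d* from -0.151 to 0.354. The cause was not tested. With 3 libraries a group, the intervals between populations stayed wide.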

Other observations

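Of 15 tested genes of the transcription factor ATF4, a factor that can also act on *Sesn2*, and its targets, many of them for amino acid and one-carbon metabolism, 11 fell and 1, *Cebpb*, rose in LGR5+ cells after 5-FU (median log2 fold change -1.66), and 11 fell in LGR5- cells (median -1.62). *Ddit3*, *Slc7a11* and *Atf5* were not called in LGR5+ cells. Across other settings and left-out libraries, 8 to 11 fell in each population, and the LGR5+ call of *Cebpb* was lost in some of these fits. *Mthfd2*, a mitochondrial folate enzyme, fell by 2.57 in LGR5+ and by 2.34 in LGR5- cells. *Aldh1l2*, another mitochondrial folate enzyme, fell by 5.62 and by 3.75, but held only 2 to 18 reads in treated libraries. Its untreated LGR5+ libraries had 5.83, 33.7 and 11.7 CPM, so the size of its fall is uncertain. *Chac1*, which degrades glutathione, fell by 3.91 and by 4.07, with 4 to 36 reads in treated libraries. Immediate early genes rose in part, 5 of 13 in LGR5+ and 6 of 13 in LGR5- cells with none falling. Other settings and left-out libraries moved these counts between 4 and 9 and between 3 and 6, with 9 in a fit of the LGR5+ libraries alone and 3 without untreated LGR5- replicate 2. *Dusp1*, a phosphatase of MAP kinases, had log2 fold changes of 3.02 and 2.69, *Junb* 1.41 and 1.25, and *Jun* 1.36 and 0.89.

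Cells were sorted with CD45 staining to leave out leukocytes. Of 9 macrophage markers, 4 were tested and 2, *Cd68* and *Lyz2* (11.8-fold in LGR5- and 3.47-fold in LGR5+ cells), rose in each population, while *Ptprc*, which encodes CD45, and *Cd14* were not called and the other 5 were too low to test. The summed level of the 9 went from 56.9 to 92.2 CPM untreated to between 119.8 and 185 CPM treated in LGR5+ libraries, and from 40.7 to 43.4 CPM to between 101 and 165.9 CPM in LGR5- libraries. Of 9 alveolar markers, 3 rose in LGR5+ and 2 in LGR5- cells, the latter 1 without untreated LGR5- replicate 1, 2 or 3. Of 8 tested bile duct markers, 4 rose in each population, but 2 in LGR5- cells without treated replicate 2. Of 3 tested hepatocyte markers, 1 rose in each. Of 2 tested endothelial markers 0 were called by edgeR, and of 3 tested fibroblast markers 1, *Pdgfrb*, fell in each population. This call was lost in LGR5+ cells (adjusted *P* = 0.0469 by edgeR with all libraries) without untreated replicate 2 or 3 or treated replicate 2 or 3, and in LGR5- cells without untreated replicate 3 or treated replicate 2 or 3. The part of these lists in the levels of the 10 genes was not tested.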
